A study of Mus musculus with 15 samples.

Results

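The unfoldase p97, encoded by Vcp, and 8 proteins that work with it or beside it in carrying ubiquitylated substrates to the proteasome were followed at the mRNA level in mouse fibroblasts challenged with a single unfolded protein. The 9 genes were taken by name from the 20207 genes in each sample's table, by a rule that holds no measured value: Vcp itself, the cofactors Nploc4, Ufd1l, Nsfl1c, Faf1 and Plaa, and the shuttle receptors Rad23b, Ubqln1 and Ubqln2. All 9 were found in every table, and all 9 passed the filter of at least 1 count in each of the 15 samples, as did 10276 genes in all.

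p97 is a hexameric AAA+ ATPase that pulls ubiquitylated proteins out of complexes and membranes and unfolds them. It chooses its substrates through cofactors. The UFD1-NPL4 heterodimer binds ubiquitin chains and feeds the substrate into the p97 pore. The UBX domain proteins and PLAA are further cofactors, of which some work with UFD1-NPL4 and others direct p97 to other tasks. Shuttle receptors carry a ubiquitin-like (UBL) domain that docks on the proteasome and a ubiquitin-associated (UBA) domain that holds the ubiquitin chain, and so bring clients to the proteasome.

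The cells were NIH3T3, an established mouse embryonic fibroblast line, with a stable DD-sfGFP transgene. Its product joins superfolder GFP to the L106P mutant of FKBP, a destabilizing domain (DD) whose fold depends on the ligand Shield-1 (S1), so that removal of S1 leaves it unfolded. Every group carried the transgene. By the study's methods the cells were a population sorted for high fluorescence rather than a clone, and S1 was withdrawn by adding purified FKBP protein to the medium. Controls, kept in S1, numbered 5 samples, and cells collected after S1 withdrawal numbered 3 at 45 min, 3 at 135 min and 4 at 405 min. All 10 fibroblast markers examined were present in every sample, with summed levels of 16470 to 20476 CPM (each gene's count scaled to a library total of 1e6) in control and 12776 to 18279 CPM at 405 min. The 7 markers of epithelial, blood and endothelial cells that were found summed to 0.811 to 3.75 CPM in control and 4.77 to 5.2 CPM at 405 min, with each of the 7 at 0 in at least 1 sample.

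Total counts ran from 6652539 in control replicate 3 to 30258404 in 45 min replicate 1. Control replicate 3 stood apart in a further way: its deposited RPKM (a read count scaled to gene length and library depth) was 0.51 per unit of CPM relative to the highest library, against 0.71 to 1.0 in the others. The libraries were also cut into 2 sets, after seeing the data, by how strongly a gene's level followed the GC content of its exons. The slope of log2 CPM, centred by gene, for each 10 points of exonic GC was graded, from -0.632 to 0.68. The neighbours across the cut were 45 min replicate 1 at 0.025 and 405 min replicate 2 at 0.288. The lowest slopes, -0.632 and -0.399 in control replicates 3 and 4, were also well apart, so the sets are not sharply separate groups. Set 2, with levels tilted towards GC-rich genes, held control replicate 2, 45 min replicate 3 and 405 min replicates 1, 2 and 4, and set 1 held the other 10, including all 3 libraries at 135 min. Since 3 of 4 libraries at 405 min but 1 of 5 controls were in set 2, each result below is given with the sets modelled or apart where they changed it. A fit within set 2 has a single control, and within set 1 a single library at 405 min. P-values within a set at 405 min thus measure no spread on that side. The level of 5146 of the 10276 genes differed between the sets at an adjusted p under 0.05 (edgeR) in a model with group and set. Because the sets were defined from these same counts, that number describes the split and is not a separate test of it. Likewise, p-values below from fits that use the sets depend on a split made from the data they test.

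Vcp, Nploc4 and Ubqln1 rose together after S1 withdrawal, by 2.36- to 2.8-fold at 405 min, and in the fit of all libraries the other 6 genes had smaller changes. Within library set 2 Ufd1l (0.94) and Nsfl1c (0.93) had log2 fold changes as large as those of Ubqln1 (0.90) and Vcp (0.88, adjusted p = 0.0675, edgeR). At 405 min 5 of the 9 passed the test (edgeR's quasi-likelihood test, Benjamini-Hochberg adjusted p under 0.05 over all genes), all 5 higher than control. Over all genes tested 9.99% passed as higher and 13.4% as lower. The median log2 fold change was 0.47 over the 9 genes and 0.0 over all genes. In plain CPM, 8 of the 9 genes lay higher in every 405 min sample than in every control, as did 7.58% of all genes tested. The gap was narrow in some: the lowest 405 min sample and highest control were 161 and 158 CPM for Faf1, 190 and 188 for Nsfl1c, and both 106 for Ufd1l. These values are shares of the counted RNA, so more RNA per cell and a shift in the rest of the transcriptome cannot be told apart.

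**Figure D1:**
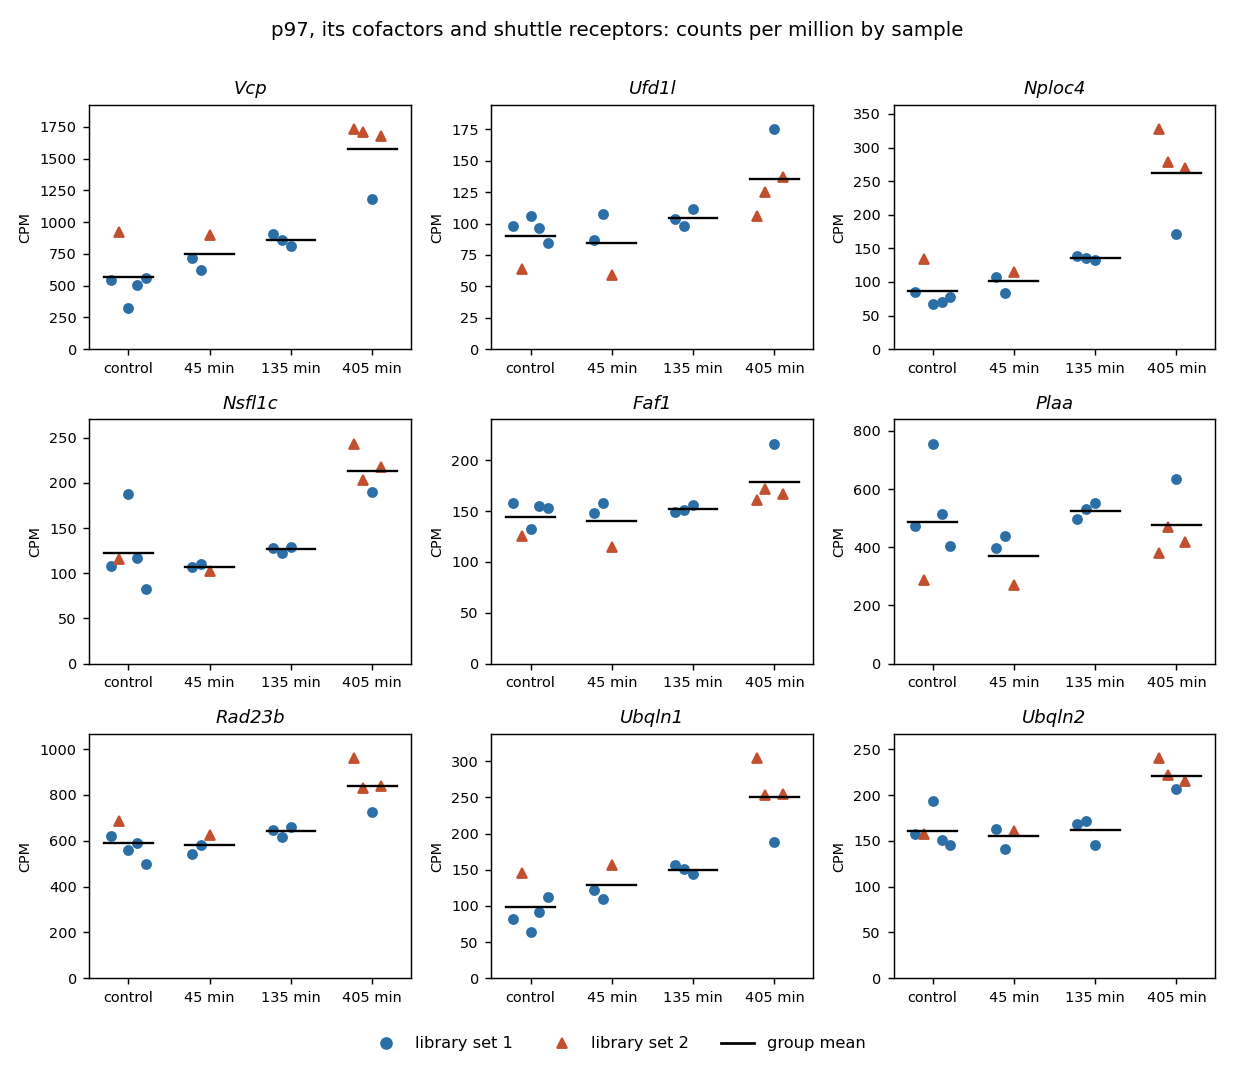
CPM (linear axis from 0) of the 9 genes in each of the 15 samples by group. Each point is 1 sample, circles are library set 1 and triangles library set 2, and the line is the group mean. Vcp sits between 1182 and 1731 CPM at 405 min, above the highest control at 924 CPM.

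The promoters of the 3 genes that rose most are shown because the genes moved together. They are the RefSeq windows of 250 bases before to 50 bases after the annotated start on build GRCm38.p6, written 5′ to 3′ on the gene's strand. Capitals mark matches on either strand to 3 motifs that were searched for: the core of the antioxidant response element, TGACNNNGC; the heat shock element, that is GAA, TTC and GAA, each 2 bases from the next; and the CCAAT box.
Vcp (chr4:43000458-43000757, minus strand): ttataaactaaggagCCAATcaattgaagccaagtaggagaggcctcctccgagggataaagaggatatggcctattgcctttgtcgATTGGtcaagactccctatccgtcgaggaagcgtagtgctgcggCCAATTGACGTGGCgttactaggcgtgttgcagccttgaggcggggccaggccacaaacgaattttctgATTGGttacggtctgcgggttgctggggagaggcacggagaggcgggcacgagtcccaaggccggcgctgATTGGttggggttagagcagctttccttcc
Nploc4 (chr11:120437651-120437950, minus strand): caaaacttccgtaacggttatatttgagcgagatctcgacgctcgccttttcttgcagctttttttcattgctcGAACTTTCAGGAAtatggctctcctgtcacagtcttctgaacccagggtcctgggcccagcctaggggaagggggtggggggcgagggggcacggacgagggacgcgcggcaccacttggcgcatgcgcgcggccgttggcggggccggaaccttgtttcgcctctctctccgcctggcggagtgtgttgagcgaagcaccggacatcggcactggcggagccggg
Ubqln1 (chr13:58215604-58215903, minus strand): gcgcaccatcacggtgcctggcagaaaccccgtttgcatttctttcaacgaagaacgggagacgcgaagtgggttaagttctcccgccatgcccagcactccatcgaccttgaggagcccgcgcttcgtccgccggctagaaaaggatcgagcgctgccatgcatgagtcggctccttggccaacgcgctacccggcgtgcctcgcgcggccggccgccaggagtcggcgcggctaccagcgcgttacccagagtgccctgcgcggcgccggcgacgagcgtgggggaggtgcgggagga

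The Vcp window held 1 antioxidant response element core, 114 bases before the start, and 5 CCAAT boxes, one of which abuts that core. At least 1 such core was found in 12.4% of the 32851 promoters in the table, and at least 5 CCAAT boxes in 0.271%. The cut of 5 is the count in Vcp itself, so that share describes the window and is no test. The Nploc4 window held 1 heat shock element, 176 bases before the start, a pattern found in 0.603% of promoters. The Ubqln1 window held none of the 3. Of the 8 genes with a promoter in the table (Ubqln2 had no entry), Plaa was the other with an antioxidant response element core, and Nsfl1c and Rad23b each held 1 CCAAT box, against 37.4% of all promoters with at least 1. These are matches of letters and say nothing of whether a factor binds there.

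Vcp, the unfoldase itself, lies on the mm9 assembly at chromosome 4, positions 42992836 to 43013379, on the minus strand. It had 548, 924, 322, 505 and 557 CPM in control replicates 1 to 5, that is 571 ± 219 (SD, n = 5). It stood at 721, 621 and 899 CPM at 45 min, at 910, 860 and 812 CPM at 135 min, and at 1731, 1708, 1182 and 1682 CPM at 405 min (1576 ± 263, SD, n = 4). Every 405 min sample was above every control, and the lowest of them was the only 405 min library of set 1, just as the highest control was the only control of set 2. The log2 fold change at 405 min was 1.37 ± 0.20 (SE), a 2.59-fold rise, with an adjusted p of 0.000434 by edgeR. Vcp was 0.53 higher on the log2 scale in set 2 than in set 1, and with the set as a covariate its change at 405 min was 1.10 ± 0.14 (adjusted p = 8.84e-05). Within set 1 it was 1.20 (adjusted p = 0.017) and within set 2, with a single control, it was 0.88 (adjusted p = 0.0675), which did not pass.

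Nploc4 and Ufd1l encode the partners of the UFD1-NPL4 cofactor. In the fit of all libraries Nploc4 passed at 405 min and Ufd1l did not, and with the set as a covariate both passed, at 1.19 and 0.88. Nploc4 (mm9, chromosome 11, 120241685 to 120298982, minus strand) had 84.7, 134, 67.0, 70.8 and 78.2 CPM in the controls. It had 107, 83.6 and 115 CPM at 45 min, 138, 136 and 133 CPM at 135 min, and 327, 279, 171 and 270 CPM at 405 min. The 405 min samples were all above the controls, and at 135 min all but control replicate 2 lay lower than the 3 treated samples, which themselves spread by only 2.1 CPM (SD). Its change at 405 min was the largest of the 9 genes under the main test, with a log2 fold change of 1.48 ± 0.18 (SE, adjusted p = 0.000171, edgeR). It passed under all the alternatives run at 405 min, with values between 1.08 and 1.64.

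Ufd1l (mm9, chromosome 16, 18812419 to 18835348, plus strand) had 98.1, 63.6, 106, 96.5 and 84.5 CPM in the controls and 106, 125, 175 and 137 CPM at 405 min. The groups did not overlap, but the lowest 405 min value and the highest control were both 106 CPM to 3 digits. The log2 fold change of 0.47 ± 0.23 (SE) did not pass the test (adjusted p = 0.129, edgeR). Ufd1l moved the other way from Vcp between the library sets, 0.73 lower in set 2 on the log2 scale, and with the set as a covariate it rose by 0.88 ± 0.14 (adjusted p = 0.000566). Within set 1, with a single library at 405 min, its change was 0.76, and within set 2, with a single control, it was 0.94. Of the 36-base words of its coding transcript, 2.15% were shared with another gene's transcript, whereas none were for the other 8 genes, so its count is slightly less certain.

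The ratio of Nploc4 to Ufd1l was compared directly, on the log2 scale of CPM. It was -0.07 ± 0.67 (SD, n = 5) in control and 0.93 ± 0.70 (n = 4) at 405 min, a difference of 1.0 that did not pass an exact two-sided permutation test (p = 0.0714, 0.107 adjusted over the 3 ratios tested). The samples overlapped. In set 1 the 405 min library stood at -0.04, beside controls at -0.21, -0.65, -0.45 and -0.11. In set 2 the 405 min libraries stood at 1.62, 1.16 and 0.98 beside a control at 1.07. The ratio was thus higher in the set 2 libraries of both groups. Within set 1 the single 405 min library lay above every control, and within set 2 the difference at 405 min was 0.18.

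**Figure D2:**
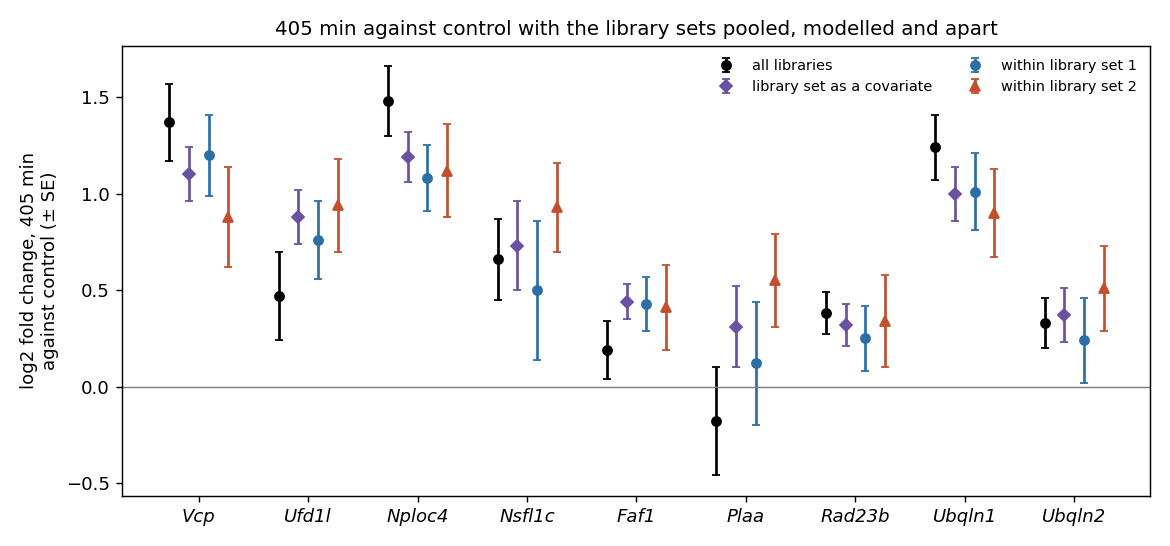
Log2 fold change at 405 min against control (points, with SE bars) for each gene in the fit of all libraries, with library set as a covariate, and within each set. Vcp, Nploc4 and Ubqln1 stay between 0.88 and 1.48 in all 4, Ufd1l moves up from 0.47 to 0.88 with the covariate, and Plaa changes sign.

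Among the other cofactors Nsfl1c passed as higher in the fit of all libraries, and Faf1 and Plaa did not pass in it. Nsfl1c (mm9, chromosome 2, 151320044 to 151337040, plus strand) encodes p47, a UBX domain cofactor known for its part in membrane fusion. It had 108, 116, 188, 117 and 82.5 CPM in the controls and 243, 203, 190 and 217 CPM at 405 min. The lowest 405 min sample was just above control replicate 3, and the remaining controls were well below. Its log2 fold change was 0.66 ± 0.21 (SE, adjusted p = 0.036, edgeR), and 0.90 without control replicate 3. The call was lost in the compared groups alone (adjusted p = 0.104), within set 1 (0.50, adjusted p = 0.521) and without any one of 6 other libraries, control replicates 1, 4 and 5 and 405 min replicates 1, 2 and 4 (adjusted p 0.0662 to 0.103). It was kept with the set as a covariate (0.73, adjusted p = 0.0483, edgeR) and with the GC offset (0.78, adjusted p = 0.0149). Within set 2, where the single control stood at 116 CPM, the change was 0.93.

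Faf1 (mm9, chromosome 4, 109349232 to 109636565, plus strand) encodes a UBA and UBX domain cofactor that works with UFD1-NPL4. It had 158, 125, 132, 155 and 153 CPM in the controls and 161, 172, 216 and 167 CPM at 405 min, higher in every 405 min sample but by little. The log2 fold change was 0.19 ± 0.15 (SE, adjusted p = 0.347, edgeR), and 0.44 ± 0.09 with the set as a covariate (adjusted p = 0.00564). It also passed with the GC offset (0.38, adjusted p = 0.0108) and with a replicate block and the set (0.44, adjusted p = 0.0179). In 17 of the 20 alternatives run at 405 min it did not pass. Faf1, like Ufd1l, was lower in set 2, by 0.47 on the log2 scale.

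Plaa (mm9, chromosome 4, 94231830 to 94269938, minus strand) encodes a ubiquitin-binding WD40 and PUL domain protein. It had 472, 288, 755, 513 and 404 CPM in the controls and 379, 470, 633 and 417 CPM at 405 min, and the groups overlapped throughout. Its log2 fold change was -0.18 ± 0.28 (SE, adjusted p = 0.642) and turned to 0.31 with the set as a covariate (adjusted p = 0.358). It was the gene with the lowest exonic GC content of the 9, 39.6% against a median of 49.1% over the genes tested, and the one with the largest difference between the sets, 0.84 lower in set 2. No direction can be given for it.

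Of the shuttle receptors, Ubqln1 rose most. Ubqln1 (mm9, chromosome 13, 58278872 to 58316953, minus strand) encodes ubiquilin-1, which also chaperones membrane proteins in the cytosol. It had 82.5, 145, 63.3, 91.5 and 113 CPM in the controls, 122, 109 and 156 CPM at 45 min, 156, 151 and 144 CPM at 135 min, and 304, 254, 188 and 255 CPM at 405 min. All 405 min samples were above all controls. The log2 fold change was 1.24 ± 0.17 (SE, adjusted p = 0.000389, edgeR), with 1.0 under the set covariate (adjusted p = 0.000156), 1.01 within set 1 and 0.90 within set 2. It passed under all the alternatives run at 405 min.

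Its paralog Ubqln2 (mm9, chromosome X, 149932775 to 149936101, plus strand), an intronless gene whose human counterpart is mutated in a form of amyotrophic lateral sclerosis, moved less. It had 157, 157, 194, 151 and 145 CPM in the controls and 240, 222, 207 and 215 CPM at 405 min, with no overlap. The log2 fold change of 0.33 ± 0.13 (SE) did not pass (adjusted p = 0.0851, edgeR). Of the 20 alternatives run at 405 min it passed in 1, without control replicate 3, the highest control (0.43, adjusted p = 0.0136). With the set as a covariate it was 0.37 (adjusted p = 0.104), and with the GC offset 0.11 (adjusted p = 0.645). No 36-base word was shared between the transcripts of the paralogs, so reads of that length or longer can be told apart.

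The log2 ratio of Ubqln2 to Ubqln1 was 0.75 ± 0.58 (SD, n = 5) in control, 0.28 ± 0.20 at 45 min, 0.10 ± 0.09 at 135 min and -0.16 ± 0.21 (n = 4) at 405 min. It was lower by 0.91 at 405 min than in control, with an exact two-sided permutation p of 0.0238, or 0.0714 adjusted over the 3 ratios. The groups met at 1 point: the set 2 control stood at 0.12 and the set 1 library at 405 min at 0.13. Within set 1 the remaining controls stood at 0.93, 1.62, 0.72 and 0.36, all above that library, and within set 2 the 405 min libraries at -0.34, -0.19 and -0.25 were all below the control.

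Rad23b (mm9, chromosome 4, 55362914 to 55405109, plus strand) encodes a shuttle receptor that also stabilises the XPC complex in nucleotide excision repair. It was one of the 2 most abundant of the 9 genes, with 621, 687, 560, 590 and 499 CPM in the controls and 959, 830, 726 and 839 CPM at 405 min. The groups did not overlap, and the change was small, with a log2 fold change of 0.38 ± 0.11 (SE, adjusted p = 0.0277, edgeR). The call was lost with the set as a covariate (0.32, adjusted p = 0.0685), in the compared groups alone (adjusted p = 0.1), with no filter (adjusted p = 0.0854), with library sizes implied by the deposited RPKM (0.51, adjusted p = 0.128), within each set, and without any one of 5 libraries, control replicates 4 and 5 and 405 min replicates 1, 2 and 4 (adjusted p 0.0521 to 0.0975). With the GC offset, which corrects each library for its trend with exonic GC content, the change was larger and passed (0.71, adjusted p = 0.0122).

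**Figure D3:**
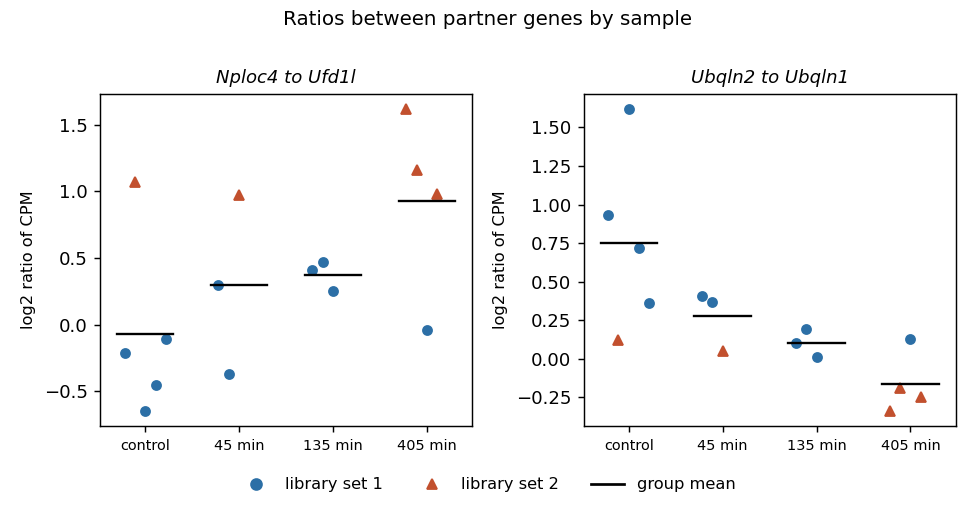
Log2 ratio of CPM between partner genes in each sample by group, with circles for library set 1, triangles for set 2 and a line at the group mean. In Ubqln2 to Ubqln1 the mean falls from 0.75 in control to -0.16 at 405 min, and in Nploc4 to Ufd1l the triangles, at 0.97 to 1.62, lie above every circle.

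The 2 earlier times showed smaller differences. At 45 min none of the 9 genes passed by edgeR, none had an unadjusted p under 0.05 and none passed by DESeq2. The log2 fold changes ran from -0.50 ± 0.31 (SE) for Plaa to 0.34 ± 0.21 for Vcp, and 0.0% of all genes tested passed in either direction. All 9 genes overlapped between the 45 min samples and the controls.

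At 135 min none passed by edgeR and 2 passed by DESeq2. An unadjusted p under 0.05 by edgeR was found for 3, a cut for which the share of all genes is not given here. The 3 were again Nploc4 (0.67 ± 0.20, adjusted p = 0.14), Ubqln1 (0.63 ± 0.19, adjusted p = 0.14) and Vcp (0.63 ± 0.21, adjusted p = 0.203). The remaining 6 lay between 0.01 for Ubqln2 and 0.22 for Ufd1l. Over all genes tested 0.564% passed as higher and 0.895% as lower by edgeR, and by DESeq2 161 of 10276 passed as higher. In none of the 9 were all 135 min samples above all controls, as they were in 3.59% of all genes. In each of the 3 genes it was control replicate 2, the only control of set 2, that overlapped with the 135 min samples, all of set 1.

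With the library set as a covariate the same 3 genes passed at 135 min, Nploc4 at 0.80 (adjusted p = 0.00125), Vcp at 0.77 (adjusted p = 0.00332) and Ubqln1 at 0.74 (adjusted p = 0.00316), against 3.06% of all genes passing as higher in that model. They also passed within set 1, which holds 4 controls and all 3 libraries at 135 min, and without control replicate 2. These fits are not separate evidence, since each models or removes control replicate 2, the only set 2 control. The sets were cut from these same counts, so the p-values with the covariate and within set 1 depend on that split. With the covariate 6 genes passed at 405 min, namely these 3, Ufd1l, Nsfl1c and Faf1, against 6.17% of all genes as higher.

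**Figure D4:**
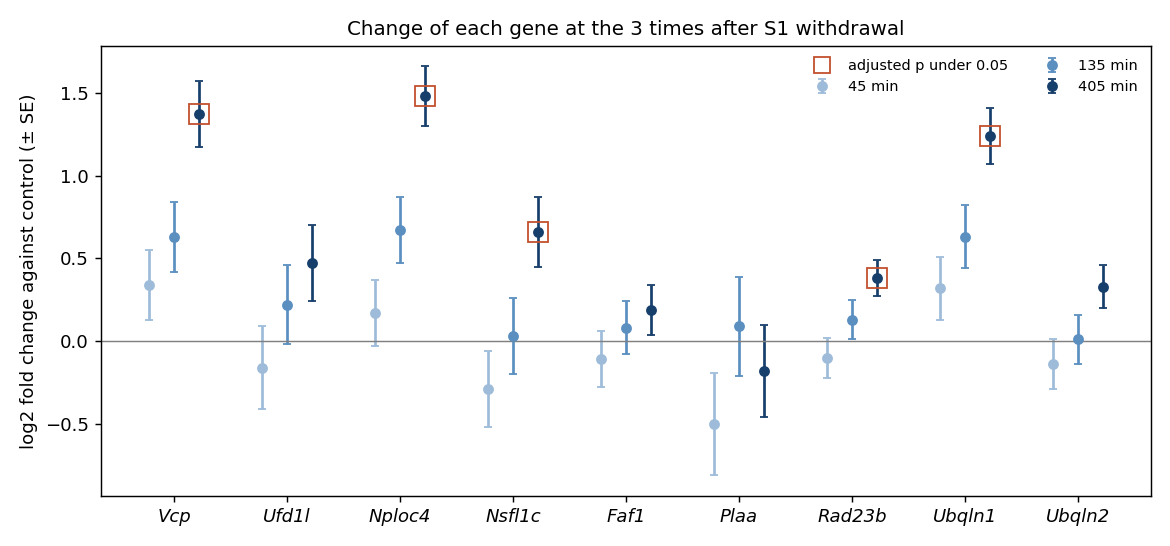
Log2 fold change against control with SE bars for each gene at 45, 135 and 405 min, from the fit of all 15 libraries. Squares mark an adjusted p under 0.05, found for Vcp, Nploc4, Nsfl1c, Rad23b and Ubqln1 at 405 min only. The 3 comparisons share the same controls.

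Between 135 and 405 min Nploc4 alone passed, with a log2 fold change of 0.81 ± 0.21 (SE, adjusted p = 0.0414, edgeR). Vcp stood at 0.74 ± 0.23 (adjusted p = 0.0708), Ubqln1 at 0.60 ± 0.20 (adjusted p = 0.0856) and Nsfl1c at 0.62 ± 0.24 (adjusted p = 0.125). Over all genes 2.24% passed as higher and 2.82% as lower. All libraries at 135 min were of set 1 and 3 of 4 at 405 min of set 2. With the set as a covariate Nploc4 fell back to 0.39 (adjusted p = 0.197), Vcp to 0.33 and Ubqln1 to 0.26, and the genes that passed were Ufd1l (0.78, adjusted p = 0.0182) and Faf1 (0.45, adjusted p = 0.0392). Which genes rose further after 135 min thus depended on how the sets were treated.

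Levels between genes were compared in RPKM, which is per length, as deposited. In control the order of mean levels was Vcp at 83.1 ± 40.8 RPKM (SD, n = 5), Rad23b at 71.9 ± 18.1, Nsfl1c at 39.3 ± 3.55, Plaa at 31.2 ± 5.77, Ubqln2 at 21.9 ± 3.13, Ubqln1 at 21.8 ± 9.88, Ufd1l at 20.8 ± 4.46, Faf1 at 15.2 ± 4.18 and Nploc4 at 10.3 ± 4.43. Ranges of all neighbours in this order overlapped. Sample by sample, Rad23b was above Nsfl1c, Nsfl1c above Plaa and Ufd1l above Faf1 in all 5 controls, whereas Vcp was above Rad23b in 3 and Ubqln1 above Ufd1l in 2. By their control means the partners of the UFD1-NPL4 dimer stood at opposite sides of Faf1, with Ufd1l at 20.8 RPKM and Nploc4 at 10.3 RPKM. At 405 min they were at 32.8 ± 9.14 and 30.4 ± 6.53 RPKM (SD, n = 4). The library sets differed here: the set 2 control already had Ufd1l at 16.4 and Nploc4 at 17.0 RPKM. The only set 1 library at 405 min still had them at 44.2 and 21.2 RPKM. A change between the partners in RPKM was not tested.

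Over the 15 samples Vcp, Nploc4 and Ubqln1 followed each other closely. The Pearson correlation of log2 CPM was 0.98 between Vcp and Ubqln1, 0.96 between Vcp and Nploc4 and 0.96 between Nploc4 and Ubqln1, and 0.97, 0.93 and 0.91 over the 10 libraries of set 1. Ufd1l and Faf1 formed a second close pair at 0.93 (0.85 in set 1), and Nsfl1c and Ubqln2 another at 0.93 (0.88). Ufd1l and Nploc4 correlated at 0.29 (0.52 in set 1). The samples share their groups, their libraries and the GC tilt, so these values describe likeness and carry no test.

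Of the 8020 tested genes with a mean of at least 10 CPM, those most alike to each of the 9 were read off by the same measure. For Vcp they were Ak1, an adenylate kinase, and Srxn1, a sulfiredoxin of the antioxidant response, both at 0.99. For Nploc4 they were Gsr, glutathione reductase, and Ubfd1, a ubiquitin-binding protein, both at 0.98. For Ubqln1 they were Vcp and Sqstm1, the autophagy receptor p62, both at 0.98. Ufd1l was most like Psmc6, an ATPase subunit of the proteasome (0.96), and Mlkl (0.95), Faf1 like Ccdc47 and the proteasome subunit Psmd12 (both 0.97), and Plaa like Snapc3 and the proteasome subunit Psma4 (both 0.98). Rad23b was most like Hsp90ab1, a cytosolic Hsp90 chaperone (0.95), and Srrt (0.92), Nsfl1c like Srrt (0.96) and the tubulin Tubb2a (0.93), and Ubqln2 like Nsfl1c (0.93) and Afg3l2 (0.92). Over set 1 alone all of these stayed between 0.81 and 0.99.

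The remaining genes of the pathway were taken as 3 lists, of other p97 cofactors, of p97 partners at the endoplasmic reticulum (ER) membrane, and of other shuttles and docking sites on the proteasome. None of their 35 tested genes passed at 135 min by edgeR or by DESeq2. An unadjusted p under 0.05 by edgeR was found for 3, again without the share of all genes. At 405 min 14 passed, 12 of them higher. Among all genes tested 9.99% passed as higher and 13.4% as lower at that time, and 6.17% as higher with the library set as a covariate.

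Of the other p97 cofactors 16 of 22 were tested, 6 were higher at 405 min and 1 was lower, with a median log2 fold change of 0.51. Ube4b, a ubiquitin chain elongation factor, rose by 1.50 ± 0.34 (SE, adjusted p = 0.00827, edgeR), from 83.4 to 250 CPM on average. Ubxn1, a UBX protein, rose by 1.20 ± 0.34 (adjusted p = 0.0231), Hdac6, a deacetylase that binds ubiquitin, by 1.16 ± 0.34 (adjusted p = 0.0275) and Aspscr1, also known as TUG, by 1.05 ± 0.36 (adjusted p = 0.0445). Ubxn2b, a close relative of Nsfl1c, was lower by edgeR, with a log2 fold change of -1.26 ± 0.36 (adjusted p = 0.0234). With the library set as a covariate 4 of the 16 were higher and none lower. Ube4b (1.13) and Ubxn1 (0.64) still passed in that model, as did Ubxn4, a UBX protein of the ER membrane (1.10, adjusted p = 1.49e-05, and 0.83 without the covariate), and Vcpip1, a deubiquitinase that binds p97 (0.55, adjusted p = 0.0174, and 0.54). The last 2 were added here after their values were seen. In the same model Hdac6 (0.80, adjusted p = 0.095), Aspscr1 (0.56, adjusted p = 0.164) and Ubxn2b (-0.87, adjusted p = 0.13) did not.

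Of the p97 partners at the ER membrane 10 of 11 were tested, 2 were higher and 1 was lower, beside 9.99% and 13.4% of all genes, with a median of 0.21. Sel1l, which scaffolds the HRD1 ubiquitin ligase, rose by 0.60 ± 0.19 (adjusted p = 0.0334, edgeR), and Derl1, a derlin that recruits p97 to the membrane, by 0.42 ± 0.12 (adjusted p = 0.0224). Vimp, the selenoprotein that anchors p97 there, was lower, with a log2 fold change of -1.05 ± 0.27 (adjusted p = 0.0155). With the set as a covariate neither Sel1l (0.33) nor Derl1 (0.34) passed, and the median was -0.10. The 2 that passed were lower, Vimp at -0.58 (adjusted p = 0.046, edgeR) and Herpud1 at -1.04 (adjusted p = 0.0061). Among all genes 706 of 10276 passed as lower in that model. Herpud1 was added here after its value was seen.

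Of the other shuttles and docking sites 9 of 10 were tested, 4 were higher and none lower at 405 min, with a median of 0.56. These 4 were Psmd4, the Rpn10 ubiquitin receptor of the proteasome, at 1.51 ± 0.21 (SE, adjusted p = 0.000383, edgeR), Psmd2, the Rpn1 subunit on which UBL domains dock, at 1.24 ± 0.17 (adjusted p = 0.000305), Adrm1, the Rpn13 receptor, at 0.56 ± 0.17 (adjusted p = 0.0291), and Nub1, which targets NEDD8 conjugates, at 0.36 ± 0.12 (adjusted p = 0.0465). All 4 passed with the set as a covariate as well, Psmd4 at 1.33, Psmd2 at 1.04, Adrm1 at 0.71 and Nub1 at 0.50. Psmd4 went from 113 to 341 CPM and Psmd2 from 259 to 653 CPM on average.

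**Figure D5:**
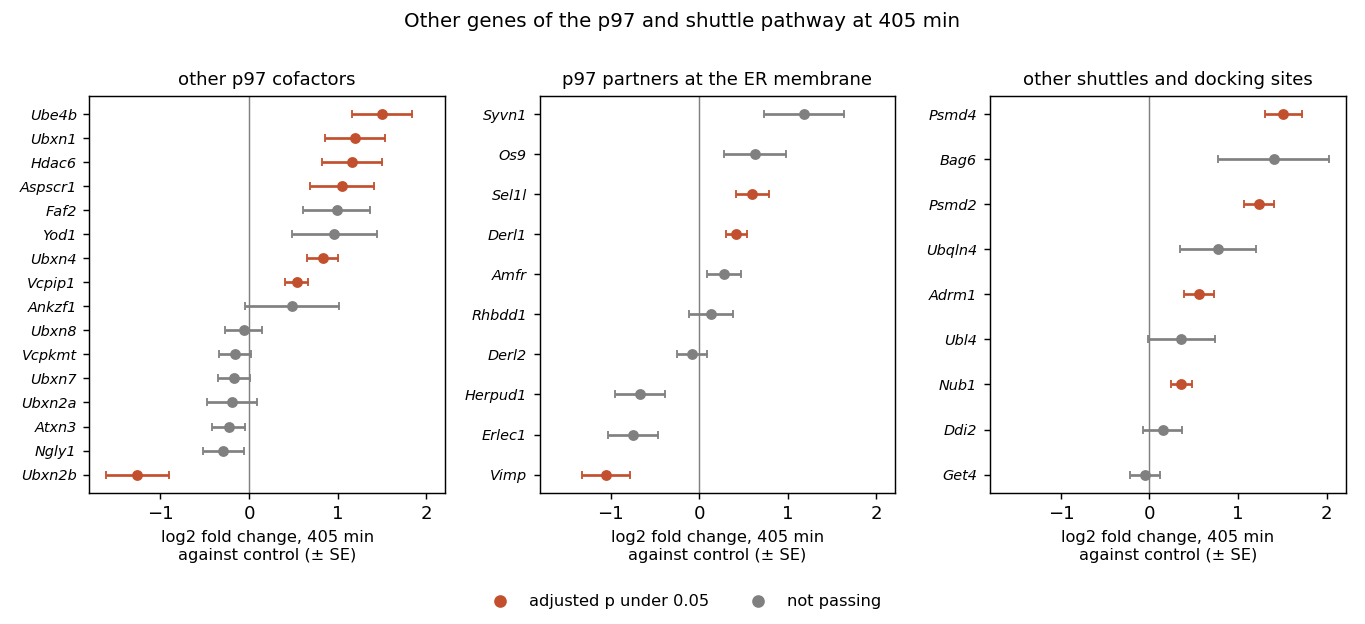
Log2 fold change at 405 min against control with SE bars for the tested genes of the 3 wider lists, with those at an adjusted p under 0.05 in red. Ube4b at 1.50, Psmd4 at 1.51 and Psmd2 at 1.24 lead the genes that passed as higher, and Ubxn2b at -1.26 and Vimp at -1.05 are the 2 that passed as lower.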

How the data were processed

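The 15 tables, 1 per sample, were joined by gene and grouped by the sample titles. The rule for the 9 genes holds no measured value, but it and the wider lists were written with earlier results of these data known. Per the labels, RNA was extracted with an RNeasy kit and libraries were made with an Encore Complete kit. The study's methods describe poly(A) selection with random priming and also a NuGEN Encore kit, and which library had which preparation is not given in the sources used here. The authors mapped reads to mm9 and RefSeq on DNAnexus, with an aligner not given in the sources used here, and deposited an expected count for each gene, an estimate that can hold a fraction, written to 4 digits. The authors also deposited RPKM, used for levels between genes, and a standard score and the ratio of RPKM to its root mean square, neither used here.

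Counts were rounded and tested with edgeR 4.0.16 (R 4.3.3; quasi-likelihood, TMM) on all 15 samples, with no covariate and at least 1 count in every sample, and p-values adjusted over all 10276 genes. SE is the log2 fold change over the root of F. CPM is a gene's count scaled to a table total of 1e6, without TMM. Since nothing says that replicates are separate cultures, p-values measure the spread between these samples.

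Library sets were cut at 0.2, the slope of gene-centred log2 CPM on GC content for each 10 points of exonic GC, a step chosen after seeing the data. Exons came from GENCODE on NCBIM37, the same assembly as mm9: 99.5% of the shared symbols lay on the same locus. Ratios of CPM were tested by exact permutation and adjusted over 3 ratios, of which 2 are given here. The other ratio and 1 gene were left out of the results and counts.

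Named beside the 9 genes were, of each wider list, at most 4 genes higher and 4 lower past the threshold at 405 min by size, and the 2 genes most alike to each. Alternatives were DESeq2 1.42.0, other filters, the compared groups alone, a replicate block, the library set, a GC offset, each library left out and, chosen after seeing the data, library sizes implied by the RPKM.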

Additional observations from a re-analysis of the deposited data

Results flagged for a closer look

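In 3 of the 22 groups of 4 or 5 samples examined, 1 sample was farther from the others than Dixon's limit, and chance alone flags about 1 in 20. Vcp at 405 min was at 1182 CPM in replicate 3, the library of that group in set 1, with the other 3 at 1682 to 1731. Nploc4 in control was at 134 CPM in replicate 2, the control in set 2, with the others at 67.0 to 84.7. Ubqln2 in control was at 194 CPM in replicate 3, the library with the fewest counts, with the others at 145 to 157. The change of Nploc4 differed between 2 times, 405 min against 135 min, by 0.81 on the log2 scale, which was 0.39 with the library set as a covariate.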

How the results depend on the processing

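Of the 9 genes, Nploc4 and Ubqln1 at 405 min passed under all the alternatives run and Vcp under all but the fit within library set 2 (0.88). The number of the 9 passing at 405 min was 5 in the reported fit, 7 with the GC offset and 6 with the set covariate. It was 3 with the compared groups only and with the replicate block, and 3 to 6 with a library left out. Of 10276 genes tested, 1027 passed as higher in the reported fit, 634 with the set covariate and 333 with the replicate block. With the GC offset 1136 of 9845 did, with the compared groups only 349 of 10328, and with a library left out 418 to 2517. The replicate block with the set gave 588 and sizes implied by RPKM 286. With the replicate block the calls of Nsfl1c (adjusted p = 0.107) and Rad23b (adjusted p = 0.127) were lost, as with block and set (adjusted p = 0.0769 and 0.126). At 135 min the number passing was 0, but 3 with the set covariate, with block and set, and within set 1. It was 2 by DESeq2, 1 with the GC offset and 0 to 3 with a library left out (3 without control replicate 2). Of 10276 genes 58 passed as higher in the reported fit, 314 with the set covariate, 235 with block and set, and 161 by DESeq2. Within set 1 it was 216 of 10364, with the GC offset 122 of 9845, and 115 of 10287 without control replicate 2. Between 405 and 135 min the number of the 9 passing was 1, but 0 with filterByExpr, no filter, the replicate block or sizes implied by RPKM. It was 2 with the set covariate or the GC offset, 3 by DESeq2 and 4 with the compared groups only. With a library left out it ran from 0 to 3. Of 10276 genes 230 passed as higher in the reported fit, 171 with the set covariate, 799 by DESeq2 and 5 with the replicate block. With the GC offset 412 of 9845 did, with the compared groups only 1880 of 12188, and with a library left out 19 to 580. Of the wider lists 14 passed at 405 min, 5 with the replicate block or RPKM sizes and 9 with block and set. It was 4 with the compared groups only and 4 to 19 with a library left out. No count of these lists is given within a set at 405 min, where 1 side has a single library. At 135 min 0 passed, 1 with the set covariate and 2 within set 1. The replicate numbers did not pair the samples: deviations from group means correlated at -0.11 on average between same-numbered samples and at 0.028 between others. The ratio differences within set 2 were 0.18 for Nploc4 to Ufd1l and -0.38 for Ubqln2 to Ubqln1. Within set 1 the single 405 min library lay above every control in the former ratio and below every control in the latter. With a library left out the differences over both sets ran from 0.77 to 1.32 and from -1.07 to -0.70. With the same-numbered samples paired (replicate block) they were 0.99 and -1.01. With sizes implied by RPKM the median of all genes was 0.23 at 45 min, 0.12 at 135 min and 0.11 at 405 min. In the reported fit it was 0.02, -0.06 and 0.0.

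Changes of sign were all in values that did not pass. At 45 min Vcp was -0.05, Nploc4 -0.22 and Ubqln2 0.03 within set 2, Rad23b was 0.05 with the GC offset, and with RPKM sizes Ufd1l was 0.11, Nsfl1c 0.05, Faf1 0.11, Rad23b 0.13 and Ubqln2 0.14. At 135 min the replicate block gave -0.09 for Nsfl1c and -0.07 for Ubqln2, block and set gave -0.12 for Nsfl1c, -0.02 for Faf1, -0.13 for Plaa and -0.08 for Ubqln2, the set covariate gave -0.0043 for Faf1, -0.02 for Plaa and -0.01 for Ubqln2, the GC offset gave -0.09 for Ubqln2, and set 1 alone gave -0.01 for Nsfl1c, -0.07 for Plaa and -0.03 for Ubqln2. At 405 min Plaa was 0.31 with the set covariate, 0.26 with block and set, 0.30 with the GC offset, 0.12 within set 1, 0.55 within set 2 and 0.09 with RPKM sizes. Between 405 and 135 min Plaa was 0.33 with the set covariate, 0.39 with block and set and 0.19 within set 1. With a library left out, signs changed within -0.40 to 0.07 (Ufd1l) and -0.23 to 0.04 (Faf1) at 45 min, -0.08 to 0.31 (Nsfl1c), -0.07 to 0.36 (Plaa) and -0.05 to 0.13 (Ubqln2) at 135 min, -0.37 to 0.07 (Plaa) at 405 min, and -0.02 to 0.17 (Faf1) between 405 and 135 min. The cause was not tested. Over the 9 genes and 4 comparisons, 550 values kept direction and call, 34 gained the call, 37 lost it and 45 changed sign.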
